A study of Mus musculus with 3 samples.

Results

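Erythroid cells of the mouse forelimb bud that carried deep single-cell libraries are described here. The authors' table sorts the cells into numbered clusters, and the members are the cells of cluster 4 that held at least 2000 unique molecular identifiers (UMIs, the tags that mark each captured RNA molecule, so that PCR copies count once). Of 43950 cells, 1169 met the rule. They were 391 of 18957 cells in B6_E10.5, 621 of 12220 in 129_E9.5 and 157 of 12773 in B6_E9.5. The members were selected on measured values, namely the cluster, taken from expression, and the UMIs of the cell, so the high globin content of the members is a description and was not tested.

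The 3 libraries came from dissected forelimbs of wild-type embryos, digested with trypsin and run on the 10x 3′ chemistry. B6_E10.5 is strain c57bl6.J at stage E10.5 (embryonic day), 129_E9.5 is strain 129S6.sv at E9.5, and B6_E9.5 is c57bl6.J at E9.5. Each strain and stage had 1 reaction, so no difference below has a replicate check and stage or strain cannot be told apart from the library. The labels give no number of embryos. The 95% intervals cover counting error only. The 3′ tags do not scale with transcript length, so counts of different genes are set side by side without a length correction.

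The member cells held 5934557 UMIs in B6_E10.5, 7714623 in 129_E9.5 and 2900149 in B6_E9.5. The median cell had 14845 UMIs in B6_E10.5, 12055 in 129_E9.5 and 17997 in B6_E9.5. The barcode sequence of 18 members in B6_E10.5, 31 in 129_E9.5 and 12 in B6_E9.5 also occurred in another library. The defining markers Hba-x, Hbb-y, Hbb-bh1 and Alas2 (the first enzyme of haem synthesis in red cells) were detected in every library, but they belong to the values that chose the cells and so do not test the label. A globin UMI does not mark the type by itself, since 76.6% of mesenchymal cells in B6_E10.5, 93.5% in 129_E9.5 and 99.8% in B6_E9.5 held one too. The members poor in globin described below stand apart from the label. Over all members the 4 genes made up 416100 counts per 1000000 (CPM) in B6_E10.5, 447800 CPM in 129_E9.5 and 325800 CPM in B6_E9.5. Kit, a receptor of early progenitors, had 1 UMI in B6_E10.5 and 0 in the E9.5 libraries. The progenitor factor Gata2 had 0 UMIs in B6_E10.5, 2 in 129_E9.5 and 2 in B6_E9.5.

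Primitive erythroid cells arise in the yolk sac, enter the blood while still nucleated and mature there as a cohort. While they mature they change the globin genes that they use: in the beta-like cluster Hbb-bh1 gives way to Hbb-y, and in the alpha-like cluster Hba-x gives way to Hba-a1 and Hba-a2. The adult-type beta-like genes Hbb-bs and Hbb-bt are the main beta-like genes of definitive red cells, which arise later. Inbred mouse strains carry different versions of the beta-like cluster.

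Promoter stretches of Hba-x, Hba-a1, Hbb-y, Hbb-bt and Hbb-bs are shown here so that the sequence of genes compared below stands beside their counts; Hbb-bh1 and Hba-a2 are named only. They are the 150 bases before the start of each gene in the RefSeq table of build GRCm38.p6, 5′ to 3′ on the gene's own strand. Capitals mark 3 motifs on either strand: the GATA box (GATA with A or T before it and A or G after it), the CACCC box (CCACCC) and the CCAAT box (CCAAT). No match of one motif overlaps a match of another in these windows.
Hba-x, chr11:32276450-32276599, plus strand: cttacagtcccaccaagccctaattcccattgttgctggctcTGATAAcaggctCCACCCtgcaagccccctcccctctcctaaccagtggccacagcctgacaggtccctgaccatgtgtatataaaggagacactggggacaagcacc
Hba-a1, chr11:32283522-32283671, plus strand: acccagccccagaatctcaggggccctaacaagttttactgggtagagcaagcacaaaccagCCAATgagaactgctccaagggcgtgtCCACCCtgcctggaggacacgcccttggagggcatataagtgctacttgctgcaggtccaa
Hbb-y, chr7:103853208-103853357, minus strand: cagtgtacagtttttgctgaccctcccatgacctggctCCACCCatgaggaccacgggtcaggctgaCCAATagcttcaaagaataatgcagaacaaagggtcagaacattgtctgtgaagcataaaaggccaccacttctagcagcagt
Hbb-bt, chr7:103813924-103814073, minus strand: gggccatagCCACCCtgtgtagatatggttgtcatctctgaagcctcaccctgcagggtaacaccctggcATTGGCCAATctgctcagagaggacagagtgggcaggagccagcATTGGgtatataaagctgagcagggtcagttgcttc
Hbb-bs, chr7:103827929-103828078, minus strand: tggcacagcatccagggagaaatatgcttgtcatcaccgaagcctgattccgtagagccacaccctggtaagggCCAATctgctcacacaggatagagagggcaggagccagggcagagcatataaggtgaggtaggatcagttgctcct

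A GATA box stood in the window of Hba-x, with its first base 108 bases before the RefSeq start, and CACCC boxes stood in those of Hba-x, Hba-a1, Hbb-y and Hbb-bt. CCAAT boxes stood in the windows of Hba-a1, Hbb-y, Hbb-bt and Hbb-bs, with 3 in the Hbb-bt window. Among 27025 RefSeq promoters of the same length, 16.3% held the GATA box, 19.4% the CACCC box and 25.3% the CCAAT box. The strain 129S6.sv may differ from these letters, which are those of the reference. In the GENCODE M21 annotation of mm10 the alpha-like genes lie on the plus strand of chromosome 11 in the order Hba-x (32276400 to 32278116), Hba-a1 (32283511 to 32284465), Hbq1b, Hba-a2 (32296489 to 32297298) and Hbq1a. The beta-like genes lie on the minus strand of chromosome 7, and along that strand the order is Hbb-y (103851749 to 103853216), Hbb-bh1 (103841637 to 103843164), Hbb-bh2, Hbb-bs (103826534 to 103828096) and Hbb-bt (103812524 to 103813996). GENCODE places the starts of the 5 genes shown further upstream than RefSeq does. The whole windows of Hba-x, Hba-a1 and Hbb-bs and parts of those of Hbb-y and Hbb-bt therefore lie inside the GENCODE gene spans, and they are upstream of the RefSeq start alone.

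Globin RNA made up about equal parts of the B6_E10.5 and 129_E9.5 cells and a smaller part of the B6_E9.5 cells. Its share of all UMIs was 51.4% (51.3 to 51.4) in B6_E10.5, 52.1% (52.1 to 52.1) in 129_E9.5 and 37.7% (37.6 to 37.7) in B6_E9.5. The median cell gave the same order, with 52.4% in B6_E10.5, 52.9% in 129_E9.5 and 38.7% in B6_E9.5. The middle 50% of cells lay between 48.0% and 56.2% in B6_E10.5 and between 49.2% and 56.2% in 129_E9.5, against 33.2% to 43.3% in B6_E9.5. Those middle ranges of B6_E10.5 and 129_E9.5 did not overlap that of B6_E9.5.

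The number of globin UMIs per cell differed less than the share. The median was 7635 globin UMIs in B6_E10.5, 6325 in 129_E9.5 and 6801 in B6_E9.5. The non-globin UMIs of the median cell were 6976 in B6_E10.5 and 5789 in 129_E9.5, against 11300 in B6_E9.5. The B6_E9.5 cells thus had the most non-globin UMIs, while their globin count lay between those of the other libraries. Capture per cell and RNA per cell cannot be told apart. Genes detected per cell followed the non-globin UMIs, with medians of 1979 in B6_E10.5, 1929 in 129_E9.5 and 2732 in B6_E9.5.

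**Figure D1:**
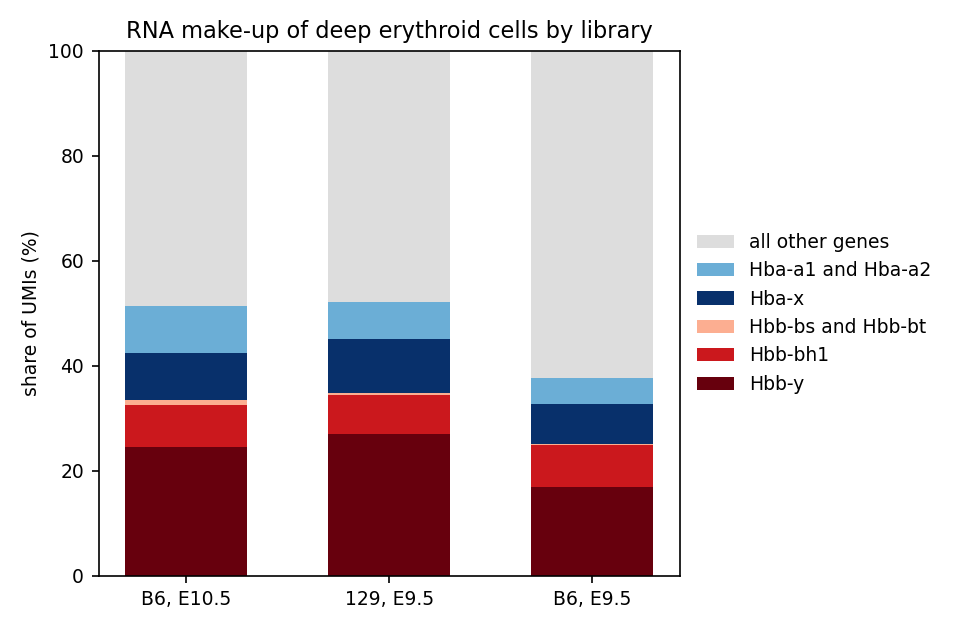
Stacked bars give the share of all UMIs (percent, vertical axis) taken by the globin genes and by all other genes in the deep erythroid cells of each library, over 391 cells in B6_E10.5, 621 in 129_E9.5 and 157 in B6_E9.5. Globin took 51.4% in B6_E10.5 and 52.1% in 129_E9.5, against 37.7% in B6_E9.5, and Hbb-y was the widest globin band in each bar.

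Hbb-y, the beta-like globin gene that prevails in maturing primitive cells, was the most abundant transcript. It stood at 245400 CPM of all genes in B6_E10.5, 269400 CPM in 129_E9.5 and 168400 CPM in B6_E9.5. Hbb-bh1, which is used earlier, stood at 80160 CPM in B6_E10.5, 73920 CPM in 129_E9.5 and 79850 CPM in B6_E9.5. On this scale the Hbb-bh1 level differed little between the libraries, while the Hbb-y level was lowest in B6_E9.5.

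The choice of the total changes how Hbb-bh1 reads. Over all UMIs the ratio of B6_E10.5 to B6_E9.5 was 1.00 (0.999 to 1.01) for Hbb-bh1 and 1.46 (1.45 to 1.46) for Hbb-y. Per non-globin UMI it was 1.29 (1.28 to 1.29) for Hbb-bh1 and 1.87 (1.86 to 1.88) for Hbb-y. For 129_E9.5 over B6_E9.5 the Hbb-bh1 ratio changed side, with 0.926 (0.921 to 0.930) over all UMIs and 1.20 (1.20 to 1.21) per non-globin UMI, while Hbb-y was higher on both scales at 1.60 (1.59 to 1.61) and 2.08 (2.08 to 2.09).

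The balance within the beta-like pair does not depend on the total. Hbb-bh1 made up 24.6% (24.6 to 24.7) of Hbb-bh1 plus Hbb-y UMIs in B6_E10.5, 21.5% (21.5 to 21.6) in 129_E9.5 and 32.2% (32.1 to 32.3) in B6_E9.5. Cell by cell, 90% of cells lay between 20.2% and 28.8% in B6_E10.5 and between 18.3% and 24.6% in 129_E9.5, against 26.0% to 38.3% in B6_E9.5. The bulk of 129_E9.5 cells lay below the bulk of B6_E9.5 cells, and B6_E10.5 cells lay between them with some overlap with both.

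Hba-x, the embryonic alpha-like globin gene, stood at 89350 CPM of all genes in B6_E10.5, 103200 CPM in 129_E9.5 and 76390 CPM in B6_E9.5. Hba-a1, which adult red cells also use, stood at 59900 CPM in B6_E10.5, 48350 CPM in 129_E9.5 and 33390 CPM in B6_E9.5. Its near-identical copy Hba-a2 stood at 29140 CPM in B6_E10.5, 22390 CPM in 129_E9.5 and 16180 CPM in B6_E9.5. Reads of this pair can be split between the copies by the counting, so they are summed below. The split itself hardly differed, with Hba-a2 at 32.7% of the pair in B6_E10.5, 31.7% in 129_E9.5 and 32.6% in B6_E9.5.

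The alpha-like balance ranked the libraries differently from the beta-like balance. Hba-x made up 50.1% (49.99 to 50.18) of alpha-like UMIs in B6_E10.5, 59.3% (59.2 to 59.4) in 129_E9.5 and 60.6% (60.5 to 60.8) in B6_E9.5. The middle 50% of cells lay between 45.6% and 52.7% in B6_E10.5 and between 57.2% and 61.7% in 129_E9.5, against 57.4% to 63.0% in B6_E9.5. Hba-x was therefore a smaller part in B6_E10.5 than in B6_E9.5, and the E9.5 libraries of the 2 strains lay close together, whereas for Hbb-bh1 129_E9.5 was the farthest from B6_E9.5. Within a library the shares of single cells were nearly unrelated: the Spearman correlation of the Hbb-bh1 share with the Hba-x share was 0.022 over 379 cells in B6_E10.5, 0.0898 over 615 in 129_E9.5 and 0.0251 over 142 in B6_E9.5. The points are cells of 1 library, so these values are descriptions.

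**Figure D2:**
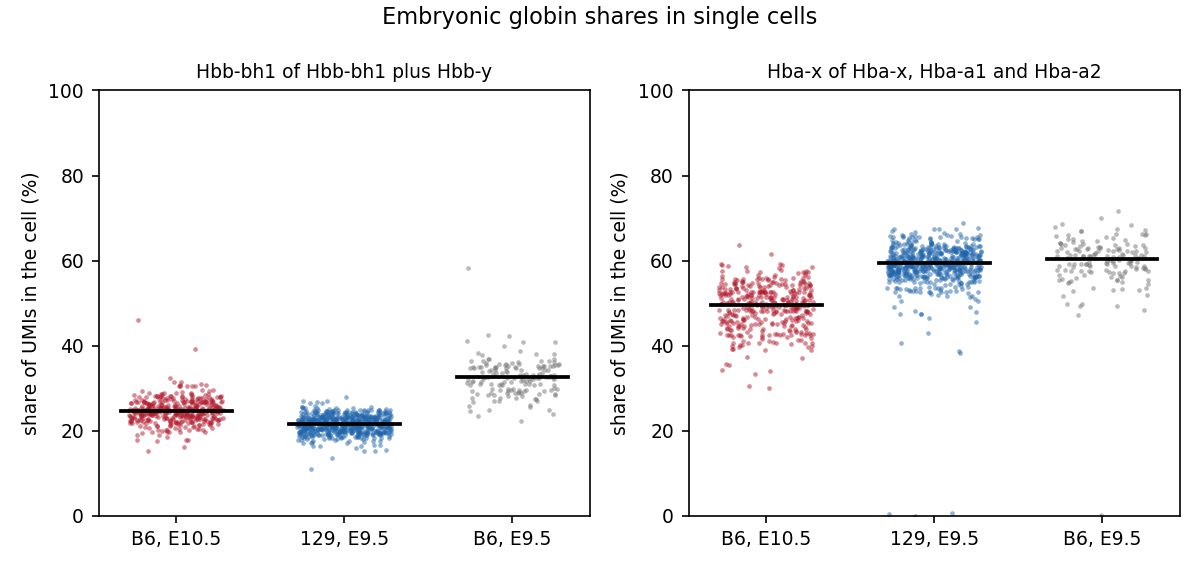
Each point is 1 deep erythroid cell with at least 20 UMIs of the genes in the denominator, the vertical axis is the share of those UMIs (percent), and the black bar is the median over cells. The Hbb-bh1 medians are 24.7% in B6_E10.5, 21.5% in 129_E9.5 and 32.5% in B6_E9.5, and the Hba-x medians are 49.7% in B6_E10.5, 59.4% in 129_E9.5 and 60.4% in B6_E9.5.

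The alpha-like genes together made up 34.7% of globin UMIs in B6_E10.5, 33.4% in 129_E9.5 and 33.5% in B6_E9.5. The alpha-like to beta-like balance was therefore alike in libraries whose embryonic shares differed.

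Adult-type beta-like RNA was a small part of the whole but differed most between the libraries. Hbb-bs and Hbb-bt together made up 2.93% of beta-like UMIs in B6_E10.5, 1.10% in 129_E9.5 and 0.911% in B6_E9.5. Leaving out 4 cells with mostly adult-type RNA, described below and chosen after their values were seen, gave 2.93% in B6_E10.5, 1.03% in 129_E9.5 and 0.524% in B6_E9.5, so that 1 cell carried a large part of the B6_E9.5 value.

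The libraries used the pair differently. Hbb-bt stood at 8536 CPM of all genes in B6_E10.5, 291.9 CPM in 129_E9.5 and 631.7 CPM in B6_E9.5. Hbb-bs stood at 1279 CPM in B6_E10.5, 3523 CPM in 129_E9.5 and 1651 CPM in B6_E9.5. For B6_E10.5 over B6_E9.5 the Hbb-bt ratio was 13.5 (12.9 to 14.2) over all UMIs and 17.3 (16.5 to 18.2) per non-globin UMI, and the Hbb-bs ratio was 0.774 (0.747 to 0.803) and 0.993 (0.958 to 1.03). For 129_E9.5 over B6_E9.5 the Hbb-bs ratio was 2.13 (2.07 to 2.20) over all UMIs and 2.78 (2.69 to 2.86) per non-globin UMI, and that of Hbb-bt was 0.462 (0.434 to 0.492) and 0.602 (0.565 to 0.640).

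These Hbb-bs ratios rest in large part on 1 cell, which held 2400 of the 4789 Hbb-bs UMIs of B6_E9.5. Without the 4 cells Hbb-bs stood at 1279 CPM of all genes in B6_E10.5, 3324 CPM in 129_E9.5 and 825.1 CPM in B6_E9.5. The Hbb-bs ratio of B6_E10.5 to B6_E9.5 then changed side, with 1.55 (1.48 to 1.62) over all UMIs and 1.99 (1.90 to 2.08) per non-globin UMI. That of 129_E9.5 to B6_E9.5 was higher than with them, at 4.03 (3.863 to 4.203) and 5.26 (5.04 to 5.49). Hbb-bt kept its directions, at 17.6 (16.7 to 18.6) and 22.7 (21.5 to 23.9) for B6_E10.5 over B6_E9.5 and at 0.569 (0.532 to 0.609) and 0.743 (0.694 to 0.796) for 129_E9.5 over B6_E9.5.

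Hbb-bt therefore made up 87.0% (86.7 to 87.2) of the adult-type pair in B6_E10.5, 7.65% (7.35 to 7.96) in 129_E9.5 and 27.7% (26.6 to 28.8) in B6_E9.5. Without the 4 cells the B6_E9.5 value was 36.9%, against 87.0% in B6_E10.5 and 7.64% in 129_E9.5. Among cells with at least 20 UMIs of the pair, Hbb-bt was over 90% of it in 200 of 347 cells of B6_E10.5, in 0 of 341 cells of 129_E9.5 and in 12 of 60 cells of B6_E9.5. It was under 10% in 2 cells of B6_E10.5, in 255 of 129_E9.5 and in 18 of B6_E9.5. The B6_E9.5 cells were thus spread over the whole range, while the cells of the other libraries gathered at opposite ends. Hbb-bs and Hbb-bt are close paralogs, 129 reads were counted on the mm10 reference, and how these affect the split was not tested.

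**Figure D3:**
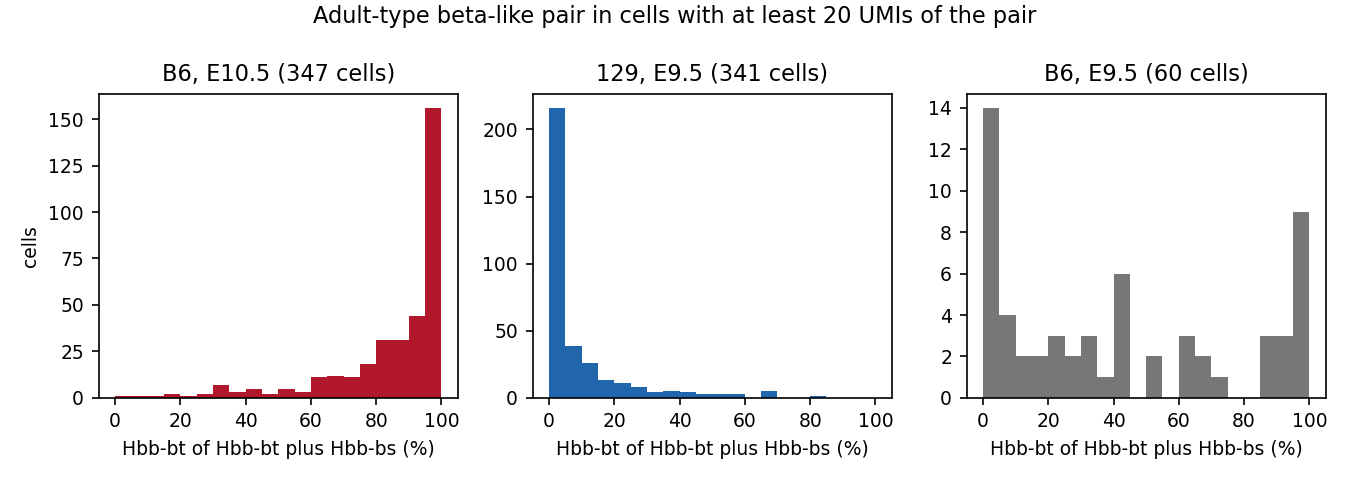
Histograms of deep erythroid cells (vertical axis, number of cells, scaled per panel) by the share of Hbb-bt among Hbb-bt plus Hbb-bs UMIs (percent, bins of 5 points), for cells with at least 20 UMIs of the pair. The 347 cells of B6_E10.5 gather at the right, the 341 cells of 129_E9.5 at the left, and the 60 cells of B6_E9.5 spread between the ends.

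The remaining globin genes were rare. Hbq1b, a theta-like gene of the alpha cluster, stood at 47.0 CPM in B6_E10.5, 45.5 CPM in 129_E9.5 and 71.4 CPM in B6_E9.5. Its ratio per non-globin UMI was 0.845 (0.703 to 1.02) for B6_E10.5 over B6_E9.5 and 0.830 (0.697 to 0.99) for 129_E9.5 over B6_E9.5. Hbb-bh2 had 12 UMIs in B6_E10.5, 21 in 129_E9.5 and 13 in B6_E9.5. Hbq1a had 9 UMIs in 129_E9.5 and 0 in both B6 libraries.

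Not every member looked like the rest. Under 10% of UMIs were globin in 12 members of B6_E10.5, 3 of 129_E9.5 and 14 of B6_E9.5. In these cells the 12 limb mesenchyme markers summed to 2283 CPM in B6_E10.5, 1463 CPM in 129_E9.5 and 2187 CPM in B6_E9.5. In the authors' mesenchyme cluster the same markers summed to 2433 CPM in B6_E10.5, 2314 CPM in 129_E9.5 and 2274 CPM in B6_E9.5. In members with 45% to 60% globin they summed to 53.4 CPM in B6_E10.5, 24.8 CPM in 129_E9.5 and 40.8 CPM in B6_E9.5. In members with 10% to 30% globin they summed to 715.5 CPM over 9 cells of B6_E10.5, 1281 CPM over 6 of 129_E9.5 and 35.0 CPM over 13 of B6_E9.5. Mesenchymal markers were thus not limited to the cells under 10% globin. In the B6 libraries the members under 10% globin carried them near the level of mesenchyme. In 129_E9.5 such members carried them at a lower level than mesenchyme, over 3 cells with 27 marker UMIs. No caller of doublets was run. Without the cells under 10% globin, globin took 52.0% in B6_E10.5, 52.2% in 129_E9.5 and 39.2% in B6_E9.5, so the order held.

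**Figure D4:**
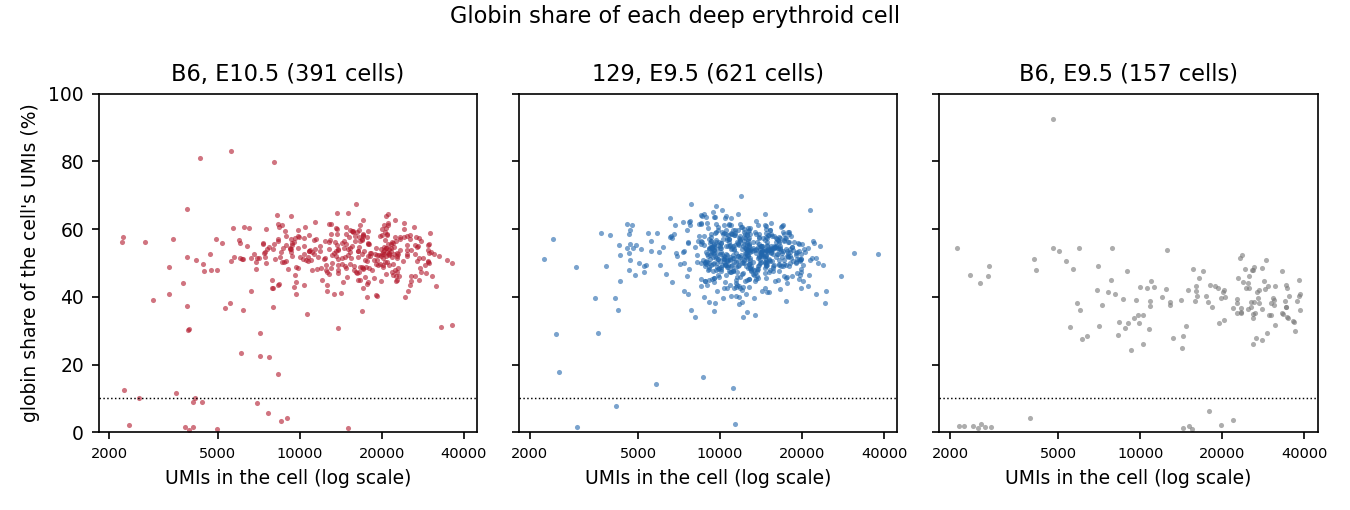
Each point is 1 deep erythroid cell, placed by its UMIs (horizontal axis, log scale) and by the share of them that is globin (percent, vertical axis), with a dotted line at 10%. Of the cells under the line, 12 are in B6_E10.5, 3 in 129_E9.5 and 14 in B6_E9.5, and the main cloud of B6_E9.5 sits lower than the other clouds.

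In 4 members Hbb-bs and Hbb-bt made up more than 50% of beta-like UMIs, and their share in these cells was between 99.56% and 99.79%. The 3 in 129_E9.5 had between 14.4% and 17.8% globin and between 0 and 3 Hba-x UMIs, against between 146 and 277 Hba-a1 UMIs. The 1 in B6_E9.5 had 92.4% globin, only 218 genes detected, 2400 Hbb-bs UMIs and 432 Hbb-bt UMIs. All 4 thus had almost no embryonic globin RNA, and they were of different kinds by globin share. B6_E10.5 had 0 of 391 such cells.

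At the depth limit the libraries also differed. Just inside it, between 2000 and 3000 UMIs, the median globin share was 38.9% over 7 cells of B6_E10.5, 38.9% over 6 of 129_E9.5 and 2.15% over 12 of B6_E9.5. Just outside, from 1500 UMIs up to the limit, it was 16.2% over 3 cells of B6_E10.5, 17.7% over 3 of 129_E9.5 and 2.29% over 24 of B6_E9.5. Below the limit lay 10 cells of the cluster in B6_E10.5 and 8 in 129_E9.5, against 794 in B6_E9.5. In B6_E9.5 these shallow cells held 679.5 UMIs at the median, and 4.17% of their UMIs were globin, above the 0.132% of the other clusters in that library. The depth limit therefore removed most of the cluster in B6_E9.5 and almost none of it in the other libraries.

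Globin UMIs also occurred outside the erythroid cluster. Mesenchymal cells carried 302.4 CPM of globin in B6_E10.5, 469.9 CPM in 129_E9.5 and 1328 CPM in B6_E9.5. Within that RNA, Hbb-bh1 made up 20.1% of the Hbb-bh1 and Hbb-y pair in B6_E10.5, 17.3% in 129_E9.5 and 30.4% in B6_E9.5. The order of the libraries was that seen in the deep erythroid cells of the same libraries. The Hba-x share in mesenchyme was 51.9% in B6_E10.5, 52.9% in 129_E9.5 and 56.6% in B6_E9.5, so that 129_E9.5 lay nearer to B6_E10.5 there than in the erythroid cells. This did not hold in ectoderm, with 49.9%, 58.2% and 56.8% in the same order. Muscle had 54.2%, 45.3% and 58.6%, and the endothelial cluster had 36.6%, 56.8% and 56.8%. In 129_E9.5, adult-type RNA was 7.22% of beta-like UMIs in mesenchyme and 22.0% in muscle, against 1.44% in ectoderm and 1.10% in the members.

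For genes other than globin, values are UMIs per 1000000 non-globin UMIs, called non-globin CPM. Non-globin UMIs were 48.6% of all in B6_E10.5, 47.9% in 129_E9.5 and 62.3% in B6_E9.5. Changing the total to all UMIs therefore shifts every log2 ratio by -0.36 for B6_E10.5 over B6_E9.5 and by -0.38 for 129_E9.5 over B6_E9.5. A gene was called higher or lower by size alone: a ratio of at least 2 either way, reaching 50 CPM and 20 UMIs on the side where it was higher. Both comparisons share the B6_E9.5 cells, so a gene that is unusual there moves in both.

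Between the stages, the genes higher in B6_E10.5 included the steroid enzyme gene Hsd3b6, genes of the red cell surface and Bpgm, while the iron receptor gene Tfrc, the arginine transporter gene Slc7a1, the serine synthesis gene Psat1, the nucleolar protein gene Npm1 and 5 of 15 tested genes of the histone list were lower. Of 2602 genes tested, 48 were at least 2-fold higher in B6_E10.5 (1.84%) and 64 at least 2-fold lower (2.46%), with a median log2 ratio of -0.05. With TMM scaling, which sets the totals by a trimmed mean of gene ratios, 63 of 2603 were higher (2.42%) and 46 lower (1.77%). The median log2 ratio was then 0.057. With all UMIs in the total, 12 of 1669 were higher (0.719%) and 127 lower (7.61%). With each cell thinned to 2000 UMIs, which gives every cell the same weight and leaves fewer UMIs, 155 of 2109 were higher (7.35%) and 78 lower (3.70%), and 34 of the 48 and 26 of the 64 were among them. The balance of higher to lower calls thus changed with the total and with thinning. In thinned cells the minimum of 20 UMIs is a higher CPM in B6_E9.5, which has the fewest member cells. Genes higher in B6_E9.5 were therefore filtered more strictly there, and the weight of the cells was not tested apart from this.

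Hsd3b6, a member of the 3-beta-hydroxysteroid dehydrogenase family, had 337.2 non-globin CPM in B6_E10.5, 69.0 in 129_E9.5 and 13.8 in B6_E9.5. It was 24.4-fold (16.4 to 37.9) higher in B6_E10.5 and 4.99-fold (3.31 to 7.86) higher in 129_E9.5 than in B6_E9.5. The 129_E9.5 call was lost to the level minimum without the cells that held a UMI of 7 markers of other types (log2 ratio 1.65) and with all UMIs in the total (1.94). A UMI of it was found in 69.3% of members in B6_E10.5, 15.0% in 129_E9.5 and 12.1% in B6_E9.5. In mesenchymal cells of at least 2000 UMIs those shares were 0.0876%, 0.0335% and 0.0573% in the same order, at median depths of 5904, 7558 and 13953 UMIs. Of its UMIs over all cells of a library, 973 of 987 lay in the deep erythroid cells of B6_E10.5, 255 of 260 in those of 129_E9.5 and 25 of 32 in those of B6_E9.5.

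Among genes of the red cell surface and skeleton, 2 of 19 tested were called higher in B6_E10.5 and 0 lower. Rhd, the Rh blood group protein, had 475.2 non-globin CPM in B6_E10.5, 388.7 in 129_E9.5 and 135.0 in B6_E9.5, which is 3.52-fold (3.07 to 4.05) for B6_E10.5 and 2.88-fold (2.51 to 3.31) for 129_E9.5. Icam4, a red cell adhesion molecule, had 257.2 non-globin CPM in B6_E10.5, 219.2 in 129_E9.5 and 123.9 in B6_E9.5. Icam4 was no longer called with thinned cells (log2 ratio 0.65) or with all UMIs in the total (0.69). The anion exchanger gene Slc4a1 (509.5, 602.8 and 458.5 in the same order) was not called. The median log2 ratio over the list was 0.15 for the stage comparison and turned to -0.21 with all UMIs in the total.

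Bpgm makes 2,3-bisphosphoglycerate, which lowers the oxygen affinity of haemoglobin. It had 527.2 non-globin CPM in B6_E10.5, 509.7 in 129_E9.5 and 134.4 in B6_E9.5. The ratio was 3.92 (3.42 to 4.51) for B6_E10.5 over B6_E9.5 and 3.79 (3.32 to 4.35) for 129_E9.5 over B6_E9.5. Car2, a carbonic anhydrase gene, was not called, with 3114 non-globin CPM in B6_E10.5, 2434 in 129_E9.5 and 2061 in B6_E9.5.

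Other genes with the largest stage ratios were Pdzk1ip1 (5.47-fold, 4.41 to 6.84), the haem transporter gene Slc48a1 (4.17-fold, 2.87 to 6.25), Cldn13 (3.997-fold, 2.91 to 5.60), Ift140 (3.99-fold, 2.65 to 6.23) and the lamin gene Lmna (3.53-fold, 2.62 to 4.84). The cell cycle inhibitor gene Cdkn1c was 7.82-fold (5.20 to 12.3) higher, Sox4 4.67-fold (3.16 to 7.14), Cdk2ap1 4.08-fold (2.75 to 6.26) and the galectin gene Lgals1 3.85-fold (3.11 to 4.81). These 4 stood at higher levels in mesenchyme than in the members. Cdkn1c had 876.1 non-globin CPM in mesenchyme of B6_E10.5 and 159.8 in that of B6_E9.5, against 108.1 and 13.8 in the deep erythroid cells of those libraries. Without the cells under 10% globin the Cdkn1c ratio was 12.3 and that of Sox4 13.3, both more than 1.5 times the values above. Without the cells that held a UMI of the 7 markers, Cdkn1c, Sox4 and Cdk2ap1 fell below the level minimum, at log2 ratios of 3.59, 2.51 and 1.63. With all UMIs in the total, the level minimum ended the calls of Sox4 (1.86), Slc48a1 (1.70), Cdk2ap1 (1.67), Cldn13 (1.64), Ift140 (1.64) and Lmna (1.46), and with thinned cells Lmna was below 2-fold (0.69).

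At the lower end stood Hist1h2ap, a replication-dependent histone gene, with 5.55 non-globin CPM in B6_E10.5, 37.6 in 129_E9.5 and 109.5 in B6_E9.5. Its ratio was 0.0506 (0.0284 to 0.0843) for B6_E10.5 over B6_E9.5. Mesenchymal cells of the same libraries showed a like order, with 4.51 in B6_E10.5, 25.8 in 129_E9.5 and 107.8 in B6_E9.5. In the list of histones and chromatin proteins, 0 of 15 tested were called higher and 5 lower in B6_E10.5: Hist1h1c, H1f0, Hmgn2, Hist1h2ap and Hist1h2ae. The list's median log2 ratio was -0.43, against -0.05 over all tested genes. Hmgn2, a nucleosome-binding protein, had 91.5 non-globin CPM in B6_E10.5, 166.5 in 129_E9.5 and 509.9 in B6_E9.5. In mesenchyme Hmgn2 had 444.4 in B6_E10.5, 426.7 in 129_E9.5 and 1266 in B6_E9.5.

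In iron handling, 1 of 11 tested genes was called higher in B6_E10.5, Slc48a1, and 1 lower, Tfrc. Tfrc, the transferrin receptor that brings iron into the cell, had 143.5 non-globin CPM in B6_E10.5, 342.9 in 129_E9.5 and 444.7 in B6_E9.5, a ratio of 0.323 (0.286 to 0.364) for B6_E10.5 over B6_E9.5. The ferritin genes, whose proteins store iron, stood the other way without reaching 2-fold: Fth1 had 16970 non-globin CPM in B6_E10.5, 14540 in 129_E9.5 and 10730 in B6_E9.5. Ftl1 had 13340 in B6_E10.5, 11110 in 129_E9.5 and 7785 in B6_E9.5. Receptor and storage genes thus differed in opposite directions between the stages in the members. In mesenchymal cells of at least 2000 UMIs, a Tfrc UMI was found in 10.35% of cells in B6_E10.5, 17.3% in 129_E9.5 and 39.8% in B6_E9.5. Median depths there were 5904, 7558 and 13953 UMIs in the same order, so depth and level cannot be told apart in these shares.

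In haem synthesis, 0 of 11 tested genes were called either way between the stages. Alas2 had 2332 non-globin CPM in B6_E10.5, 2804 in 129_E9.5 and 1852 in B6_E9.5. Fech, which puts iron into the haem ring, had 890.1 in B6_E10.5, 1060 in 129_E9.5 and 543.7 in B6_E9.5. The ratios above 1 numbered 8 of 11, with a median log2 ratio of 0.33 that turned to -0.03 with all UMIs in the total. Among redox genes, which limit damage by oxygen radicals, 1 of 14 was called higher (Gclm, which takes part in glutathione synthesis) and 0 lower. The peroxiredoxin gene Prdx2 had 5880 non-globin CPM in B6_E10.5, 7836 in 129_E9.5 and 4497 in B6_E9.5.

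Among the erythroid transcription factors 1 of 15 tested was called higher in B6_E10.5 (Zbtb7a) and 1 lower (Cited2, which with thinned cells was not called, at a log2 ratio of -0.96). The central factors were not called: Klf1 had 497.4 non-globin CPM in B6_E10.5, 530.8 in 129_E9.5 and 387.7 in B6_E9.5. Gata1 had 157.7 in B6_E10.5, 225.7 in 129_E9.5 and 144.9 in B6_E9.5, and Tal1 had 133.4 in B6_E10.5, 195.4 in 129_E9.5 and 123.3 in B6_E9.5. Bcl11a, known as a repressor of embryonic globin genes, had 7.63 non-globin CPM in B6_E10.5, 0.541 in 129_E9.5 and 0 UMIs in B6_E9.5, and it was too low to be tested. Mesenchyme of B6_E10.5 held Bcl11a at 142.9 non-globin CPM, against 17.9 in that of B6_E9.5. The erythropoietin receptor gene Epor was alike at 155.6 in B6_E10.5, 162.7 in 129_E9.5 and 153.2 in B6_E9.5.

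In the translation list, 0 of 18 tested were called higher and 4 lower in B6_E10.5. Npm1, a nucleolar protein of ribosome assembly, had 1755 non-globin CPM in B6_E10.5, 2325 in 129_E9.5 and 3976 in B6_E9.5. Eif4ebp1, a brake on cap-dependent translation, had 148.7 in B6_E10.5, 362.4 in 129_E9.5 and 551.4 in B6_E9.5. The stress-response factors Atf4 and Ddit3 were the other 2: Atf4 had 216.3 in B6_E10.5, 406.5 in 129_E9.5 and 498.3 in B6_E9.5. Atf5, a related factor, was 0.179-fold (0.134 to 0.236), the arginine transporter gene Slc7a1 0.224-fold (0.148 to 0.332) and the serine synthesis gene Psat1 0.279-fold (0.224 to 0.345) of B6_E9.5. These genes and Eif4ebp1 were also found in fewer mesenchymal cells of B6_E10.5 than of B6_E9.5, at median depths of 5904 and 13953 UMIs. The shares were 10.2% and 23.0% for Atf5, 4.99% and 21.1% for Slc7a1, 31.0% and 75.1% for Psat1, and 48.65% and 92.4% for Eif4ebp1. Slc7a1 fell below the level minimum with thinned cells (log2 ratio -2.43) and with all UMIs in the total (-2.52), as did Ddit3 with thinned cells (-2.06). Ier2, Usp50, Erh and Crabp1 completed the lower end. Crabp1, a retinoic acid binding protein gene of mesenchyme, was 0.302-fold, and without the cells under 10% globin it was no longer called, at a log2 ratio of -0.61.

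Among glycolysis genes 1 of 14 was called higher (Bpgm) and 3 lower (Aldoa, Eno1 and Pkm) in B6_E10.5, with a median log2 ratio of -0.69. Aldoa had 358.0 non-globin CPM in B6_E10.5, 470.1 in 129_E9.5 and 817.5 in B6_E9.5, and with thinned cells it was just short of 2-fold (log2 ratio -0.99). Eno1 and Pkm were also lower in mesenchyme of B6_E10.5 than in that of B6_E9.5, with 295.1 against 985.7 non-globin CPM for Eno1 and 1228 against 1633 for Pkm. The proliferation marker Mki67 had 252.3 non-globin CPM in B6_E10.5, 211.9 in 129_E9.5 and 281.0 in B6_E9.5. Of the S phase genes 0 of 21 were called either way, with a median log2 ratio of 0.48, and of the G2 and M phase genes 0 of 26, with a median of 0.22 that turned to -0.14 with all UMIs in the total. RNA of the mitochondrial genome made up 2.87% of non-globin UMIs in B6_E10.5, 2.87% in 129_E9.5 and 4.07% in B6_E9.5.

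**Figure D5:**
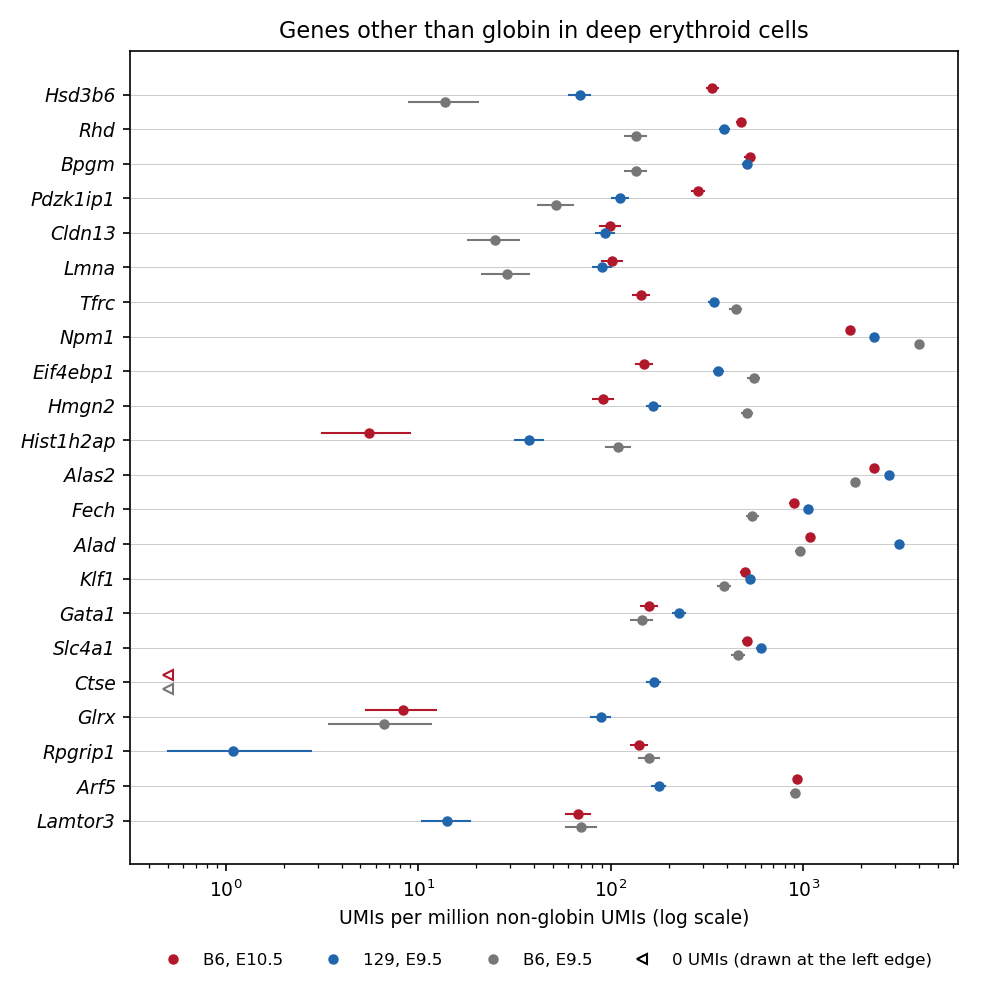
Points give UMIs per 1000000 non-globin UMIs (horizontal axis, log scale) of named genes in the deep erythroid cells of each library, bars give the exact 95% Poisson interval of the count, and open triangles mark 0 UMIs. Hsd3b6 lies at 337.2 in B6_E10.5, 69.0 in 129_E9.5 and 13.8 in B6_E9.5, and Ctse has a point in 129_E9.5 alone.

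Between the strains at E9.5, 129_E9.5 cells had RNA of Ctse, which had 0 UMIs in the deep erythroid cells of both B6 libraries, and more RNA of the haem enzyme gene Alad. Of 2777 genes tested, 110 were at least 2-fold higher in 129_E9.5 (3.96%) and 78 at least 2-fold lower (2.81%), with a median log2 ratio of 0.16. With TMM scaling 127 of 2750 were higher (4.62%) and 70 lower (2.55%), at a median log2 ratio of 0.209. With all UMIs in the total, 22 of 1717 were higher (1.28%) and 142 lower (8.27%). With thinned cells 297 of 2397 were higher (12.4%) and 89 lower (3.71%), and 87 of the 110 and 48 of the 78 were among them. The limit given above for thinned counts holds here too. The 129 reads were counted on the mm10 reference, and sequence differences between strains can move a 3′ count; this was not tested.

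Ctse, the cathepsin E gene on chromosome 1, had 616 UMIs in 129_E9.5 and 0 in both B6 libraries. With a floor of 3 UMIs put in place of 0 in the B6_E9.5 cells the ratio was 100.5, and the lower 95% limit was 81.5. A UMI of Ctse was found in 56.2% of the 129_E9.5 members and in 0.0781% of mesenchymal cells of that library with at least 2000 UMIs, at median depths of 12055 and 7558 UMIs. Tmem184a had 44 UMIs in B6_E10.5, 581 in 129_E9.5 and 0 in B6_E9.5. Its ratio for 129_E9.5 was 94.8 with the same floor, and the lower 95% limit was 76.8.

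Alad, the enzyme of the second step of haem synthesis, had 1078 non-globin CPM in B6_E10.5, 3153 in 129_E9.5 and 966.2 in B6_E9.5. It was 3.26-fold (3.10 to 3.43) higher in 129_E9.5 than in B6_E9.5, and the sole member called of 11 tested in haem synthesis. Mesenchyme showed the same order at lower levels, with 48.8 in B6_E10.5, 132.3 in 129_E9.5 and 47.3 in B6_E9.5. Cpox, the enzyme of a later step, was not called, with 1281 non-globin CPM in B6_E10.5, 1594 in 129_E9.5 and 1195 in B6_E9.5.

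Other genes higher in 129_E9.5 were Glrx, a glutaredoxin gene (13.3-fold, 7.53 to 26.1), Phlda3 (11.1-fold, 6.53 to 20.6), the membrane linker gene Ezr (8.32-fold, 4.95 to 15.1), Plek2 (4.58-fold, 3.51 to 6.09), Tagln2 (4.19-fold, 3.07 to 5.84), Ppp2r1b (4.11-fold, 3.19 to 5.38) and Bcat2 (4.02-fold, 3.07 to 5.35). Glrx and Phlda3 differed in the erythroid cells and not upward in mesenchyme: Glrx had 6.78 non-globin CPM in 129_E9.5 mesenchyme and 9.02 in B6_E9.5 mesenchyme, and Phlda3 had 22.7 and 25.2. In the stress list 2 of 8 tested were called higher in 129_E9.5, the immediate-early genes Fos and Junb, and 0 lower. With all UMIs in the total the level minimum ended the calls of Glrx (log2 ratio 3.36), Phlda3 (3.09), Ezr (2.68) and Tagln2 (1.69). Fos had 6.58 non-globin CPM in B6_E10.5, 103.7 in 129_E9.5 and 27.1 in B6_E9.5.

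The lowest ratio among the named genes was that of Rpgrip1, known as a ciliary protein gene of photoreceptors, with 140.7 non-globin CPM in B6_E10.5, 1.08 in 129_E9.5 and 157.6 in B6_E9.5. Its ratio was 0.00687 (0.00186 to 0.0178) for 129_E9.5 over B6_E9.5. In mesenchyme it had 283.3 in B6_E10.5, 0.741 in 129_E9.5 and 398.8 in B6_E9.5, so the difference was not limited to erythroid cells. The same was so of Arf5, a small GTPase gene of the Golgi (0.195-fold in the members and 0.252-fold in mesenchyme), of Lamtor3 (0.2004 and 0.176), of Rpa3 (0.172 and 0.187) and of Snrpf (0.249 and 0.230). With thinned cells Lamtor3 (log2 ratio -1.88) and Rpa3 (-2.30) fell below the level minimum. Serinc3 differed: it was 0.202-fold in the members and 1.99-fold in mesenchyme.

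The near-identical genes Eif3j1 and Eif3j2 moved in opposite directions. Eif3j1 had 125.1 non-globin CPM in B6_E10.5, 32.7 in 129_E9.5 and 217.9 in B6_E9.5. Eif3j2 had 5.89 in B6_E10.5, 112.6 in 129_E9.5 and 3.87 in B6_E9.5. Their sum was 131.0 in B6_E10.5, 145.3 in 129_E9.5 and 221.8 in B6_E9.5. Between the strains at E9.5 the sum thus differed far less than either gene, while between the stages it differed about as much as Eif3j1. Reads can be assigned to either copy, so the single values are uncertain, and the assignment was not tested.

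Calls between the strains in the other lists stand beside 3.96% higher and 2.81% lower over all tested genes. In the histone list 0 of 15 were higher and 5 lower in 129_E9.5: H1f0, Hmgn2, Hist1h2ap, Hist1h2ae and Hist1h4i. The median log2 ratio of that list was -0.7, against 0.165 over all tested genes. Among glycolysis genes 1 of 14 was higher (Bpgm) and 2 were lower (Eno1 and Pkm), with a median of -0.14. In the oncofetal list 2 of 4 tested were lower, Hmga2 and Igf2bp1. Both stood far higher in mesenchyme, and without the cells under 10% globin their log2 ratios were -0.03 for Hmga2 and -0.75 for Igf2bp1, neither called. Slc38a1, 0.196-fold in 129_E9.5, fell below the CPM minimum without those cells at a log2 ratio of -2.25, and Tmsb10 was 0.261-fold with them and 0.453-fold without. Of the S phase genes 1 of 22 was called higher (Cdc6), and of the transcription factors 0 of 15 were called either way. Rhd and Add2, a skeleton protein gene, were the 2 of 19 called higher in the membrane list, and Btg1 was lower in that of cell cycle inhibitors. Both Bpgm and Lmna (3.12-fold, 2.33 to 4.27) were called higher in each comparison, which share the B6_E9.5 cells, but with all UMIs in the total Lmna fell below the level minimum (log2 ratio 1.26 for 129_E9.5).

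Markers of other cell types were low. Those of limb mesenchyme, all 12 detected, summed to 97.9 CPM of all genes in B6_E10.5, 36.9 CPM in 129_E9.5 and 129.0 CPM in B6_E9.5. Those of endothelium summed to 13.3 CPM in B6_E10.5, 24.5 CPM in 129_E9.5 and 45.2 CPM in B6_E9.5, against 3226, 4521 and 4160 CPM in the authors' endothelial cluster of the same libraries. Those of megakaryocytes, which share precursors with red cells, summed to 15.3 CPM in B6_E10.5, 11.9 CPM in 129_E9.5 and 24.1 CPM in B6_E9.5. Of these 10 genes, 4 were detected in B6_E10.5, 3 in 129_E9.5 and 3 in B6_E9.5. Itga2b, which is among them, had 33 UMIs in B6_E10.5, 53 in 129_E9.5 and 41 in B6_E9.5. A UMI of the list was found in 19.18% of members in B6_E10.5, 13.85% in 129_E9.5 and 35.03% in B6_E9.5. Macrophage markers stood at 1.85 CPM in B6_E10.5, 1.04 CPM in 129_E9.5 and 0.690 CPM in B6_E9.5. Of these 14 genes, 6 were detected in B6_E10.5, 1 in 129_E9.5 and 1 in B6_E9.5, with C1qa, Csf1r and Ptprc at 0 in every library. The part that RNA of other cells plays in the ratios of genes abundant in mesenchyme was not tested beyond the values without cells poor in globin.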

How the data were processed

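Single-cell RNA was measured in 3 forelimb libraries. The authors deposited raw UMI counts per gene and cell, with no normalization, as 1 matrix for all libraries with a table of stage, strain and cluster per cell, as the file headers show. Cell Ranger 3 and build mm10 are given, without roles, per the submitters' processing notes. Of 15122 gene IDs, 15119 matched a symbol.

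Counts were summed over the member cells of each library and divided by all UMIs or by non-globin UMIs, with 10 globin genes with a row. Shares have exact Clopper-Pearson intervals, levels exact Poisson intervals and ratios exact conditional binomial intervals (scipy 1.17.1, numpy 2.4.6, Python 3.11.15). The script was tested on simulated data. TMM factors came from edgeR 4.0.16, used for scaling alone. No doublet caller was run. With 1 library per group there is no test between libraries.

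Genes were named by this rule: every globin gene, the 12 largest and 12 smallest ratios per comparison, the 6 or 4 most abundant members of each list, and a fixed set of erythroid genes. List members past the size rule were named after their values were seen. Some named genes are not reported here. The members and lists were chosen with earlier results of these data known.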

Additional observations from a re-analysis of the deposited data

How the results depend on the processing

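The globin share was lowest in B6_E9.5 under each alternative that was run, and B6_E10.5 lay below 129_E9.5 except without marker-bearing cells. In B6_E10.5, 129_E9.5 and B6_E9.5 it was 51.3%, 52.1% and 36.1% from 1000 UMIs on, 51.7%, 52.2% and 37.7% from 5000 UMIs on, 50.1%, 52.0% and 36.7% with each cell thinned to 2000 UMIs, 53.0%, 52.5% and 39.2% without cells holding a UMI of 7 markers of other types, 51.7%, 52.1% and 38.1% at up to 5% mitochondrial UMIs, 52.0%, 52.2% and 39.2% without cells under 10% globin, and 51.4%, 52.2% and 37.6% without adult-type cells. The last 2 alternatives were chosen after seeing the data. The Hbb-bh1 share moved to 24.4% in B6_E10.5 and 21.4% in 129_E9.5 when thinned and to 32.3% in B6_E9.5 without marker-bearing cells. The Hba-x share moved to 50.2% (B6_E10.5) and 61.0% (B6_E9.5) from 5000 UMIs on, to 49.3%, 59.2% and 59.2% when thinned, to 59.5% (129_E9.5) and 60.5% (B6_E9.5) without marker-bearing cells, and to 60.9% (B6_E9.5) without adult-type cells.

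Counts of genes called depended on the settings. Thinning, which gives each cell the same weight and leaves fewer UMIs, gave 155 genes higher and 78 lower in B6_E10.5, with 34 of the 48 and 26 of the 64 called before among them, and 297 higher and 89 lower in 129_E9.5, with 87 of the 110 and 48 of the 78. All UMIs in the total gave 12 higher and 127 lower in B6_E10.5, and 22 and 142 in 129_E9.5. With no CPM minimum they were 279 and 308 in B6_E10.5 and 427 and 365 in 129_E9.5. With at least 200 CPM they were 15 and 19 in B6_E10.5 and 27 and 24 in 129_E9.5. Of the log2 ratios of named genes over all alternatives, 2104 counted as kept. For a gene called before, kept means that it was still called, whatever its value. For a gene not called before, it means that the value stayed in its counting interval. Of the ratios not called before, 405 moved beyond that interval. Of those called before, 64 were no longer called (by the fold or by the level minimum). The remaining 1 turned: Crabp1 in 129_E9.5, at 0.32 without cells under 10% globin. The cause of the other changes was not tested. No paired analysis was possible because each group has 1 library. Depth limits genes under about 50 CPM most in B6_E9.5, which has the fewest member cells.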

Other observations

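Ctse had 0 UMIs over all cells of B6_E10.5, 629 in 129_E9.5 and 0 in B6_E9.5, and 616 of the 629 lay in deep erythroid cells. The oncofetal RNA-binding gene Lin28a, which was not called because it was too low, had 0.347 non-globin CPM in deep erythroid cells of B6_E10.5, 2.44 in those of 129_E9.5 and 12.2 in those of B6_E9.5. In mesenchyme Lin28a had 2.18 in B6_E10.5, 31.4 in 129_E9.5 and 84.5 in B6_E9.5.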
